A study of Mus musculus with 3 samples.

Results

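The Bcl11a locus was examined on the mouse build mm9, in a window of chromosome 11 from 23900000 to 24300000 that holds the gene (about 23.98 to 24.07 Mb, as the rule for the window gives it) and the sequence beyond it. Its members were all regions enriched for H3K27ac or H3K4me1 that touched this window, 115 of 93413 H3K27ac regions and 79 of 155027 H3K4me1 regions. The window was chosen by measured values, because it holds the domain with the 4th largest acetylated length of 30221 in these data, so the amount of acetylation in it is a description and carries no test. The cells were bone marrow hematopoietic stem cells of 24-month-old C57BL/6 mice, sorted as SP-KSL-CD150+. The KSL and CD150+ parts of this label stand for lineage-negative c-Kit and Sca-1 cells that carry the stem cell antigen CD150. SP names a further gate on these cells. Chromatin immunoprecipitation was sequenced in 1 library for each mark, and the 1 library of input DNA was not analysed here. The labels describe each library as a technical replicate of biological replicate 1. No younger cells and no treatment group are compared. The sources used here do not give how many mice were pooled. The values below therefore have no spread between replicates, and none is tested. The labelled cell type was not checked against marker genes, because no annotation of mm9 was used here.

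Bcl11a encodes a zinc finger protein that represses transcription and recruits chromatin-modifying complexes such as NuRD. It is required for B lymphocyte development and for normal stem cell function, and in red cells it silences the embryonic and fetal globin genes, which made its intronic erythroid enhancer a target of genome editing. H3K27ac is an acetylation of active promoters and active enhancers. H3K4me1 is a methylation of enhancers, active or not, and of the flanks of active promoters, whose centre usually carries trimethylation instead.

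In the RefSeq gene order (assembly GRCm38.p6), the nearest protein-coding gene before Bcl11a is Papolg, a poly(A) polymerase gene, and the nearest after it is Fancl, a gene of the Fanconi anemia DNA repair pathway. Between Bcl11a and Fancl the table lists 20 genes and no protein-coding one, the first being the long non-coding RNAs 4930538E20Rik, Gm12066 and Gm33440. The table is not on mm9, so none of these genes was placed among the regions.

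The sequence before the Bcl11a start is shown because the widest acetylated region of the window lay where the rule puts that start. These are the 250 bases before the 1 Bcl11a start that RefSeq's promoter table lists, on GRCm38.p6 at chr11:24080445-24080694 on the + strand, a position that is not on the mm9 scale of the regions below. CG dinucleotides are in capitals.

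Bcl11a: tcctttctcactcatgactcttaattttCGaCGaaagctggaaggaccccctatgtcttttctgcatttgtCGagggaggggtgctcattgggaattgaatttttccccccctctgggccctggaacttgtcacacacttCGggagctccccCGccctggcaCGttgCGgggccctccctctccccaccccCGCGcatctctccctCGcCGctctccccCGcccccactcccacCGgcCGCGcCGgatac

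This stretch holds 16 CG dinucleotides, as many as or more than which are found in 25.4% of the 32851 promoters of the table (median 6.00), and 62.0% of its bases are G or C (median 52.4%). On either strand it has 2 matches to the GC box GGGCGG, found in 32.7% of promoters, and 1 match to CCAAT, found in 33.8%. It has 1 match to the E-box CANNTG, which 66.2% of promoters hold. The TATA motif TATAAA, the GATA motif AGATAA, the ETS motif CGGAAG and the RUNX motif TGTGGT have 0 matches in this window of letters, and are held by 12.4%, 9.99%, 13.6% and 14.0% of promoters. Of the 4 matches, 0 pairs overlapped. A match describes letters and shows no binding.

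Acetylation at the gene start formed a wide region with its summit in a gap of H3K4me1. This H3K27ac region lay from 23976582 to 23984106, was 7.53 kb wide and had its summit at 23978326, 1.67 kb before the rounded start of the rule. Only 40 of the 93413 H3K27ac regions, itself included, were at least as wide. Its summit was 13.6-fold over the local background, the ratio that the authors' peak caller gives, and held 45 reads (exact Poisson 95% interval 32.8 to 60.2, for counting error only). No H3K4me1 region was called from 23975590 to 23982735, a gap of 7.15 kb that began 2.74 kb before the summit and ended 4.41 kb after it, so 81.8% of the acetylated region carried no H3K4me1. Before the gap lay 2 H3K4me1 regions of 5.69-fold and 4.80-fold, and after it one of 10.1-fold that was 5.94 kb wide and met 4 H3K27ac regions. Distances below are counted from this start summit.

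**Figure D1:**
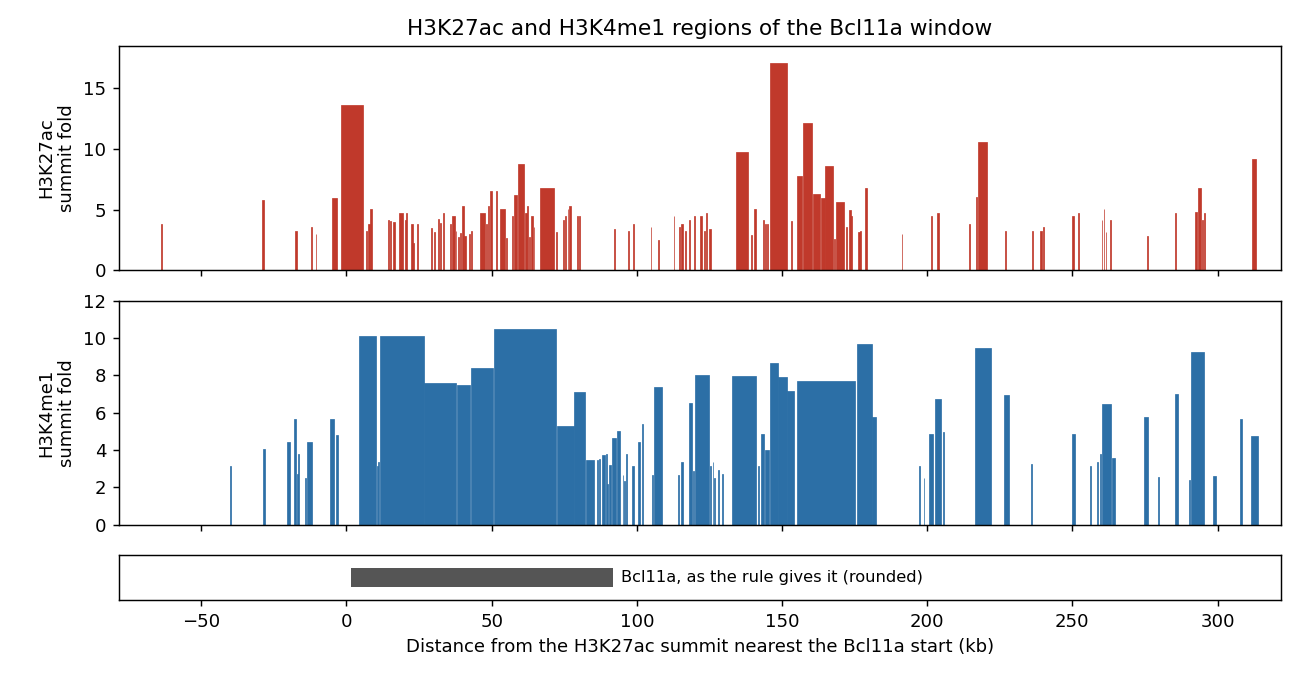
H3K27ac (top) and H3K4me1 (middle) regions of the window, each drawn over its full width at its summit fold over local background (y axes), against distance in kb from the H3K27ac summit nearest the Bcl11a start. The grey bar is the gene as the rule gives it, and the 2 highest H3K27ac bars are the start (13.6-fold) and a region 149.0 kb beyond it (17.1-fold).

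Over the gene, the called H3K4me1 was nearly continuous while H3K27ac was called as many separate regions. Over all regions H3K27ac was also the narrower mark, with a median of 355 bp against 687 bp. The part of read depth and peak calling in this contrast was not tested. Joined over gaps of up to 1 kb, 22 H3K4me1 regions formed a stretch of 92.4 kb from 23982736 to 24075121, which began 4.4 kb after the start summit and ended close to the end that the rule gives for the gene. It was the 5th longest of 100288 such stretches. In its first 77.7 kb, up to 24060461, 10 H3K4me1 regions covered 96.7% of the sequence. They included the widest of the window, 21.4 kb from 24029162 to 24050606, which reached 10.5-fold and met 13 H3K27ac regions, and one of 15.1 kb from 23989854 to 24004953, which reached 10.1-fold and met 9. Across the genome 32 and 109 H3K4me1 regions, these included, were at least as wide.

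Of the 49 H3K27ac regions with their summit in the gene interval, all 49 met H3K4me1 and 48 had the summit inside it. Their median width was 342 bp and their median summit 4.14-fold with 14.0 reads, close to the 355 bp, 3.86-fold and 13.0 reads of all H3K27ac regions. The strongest, from 24037567 to 24039507, reached 8.77-fold with 30 reads and lay 60.5 kb after the start summit. The widest, from 24045060 to 24049877, was 4.82 kb wide and reached 6.80-fold. Both lay in a block from 23992807 to 24058605, formed by joining H3K27ac regions over gaps of up to 5 kb, in which 46 regions covered 27.4 kb (41.7% of its 65.8 kb) and H3K4me1 covered 97.1%. Neighbouring summits in the block were a median of 1097 bp apart, and the gaps between regions had a median of 473 bp.

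Toward the end of the gene the calls of H3K27ac stopped before those of H3K4me1 did. The weakest H3K27ac summit of the list held 8 reads, so acetylation below that cannot be told from none here. From 24058606 to 24070467, 11.9 kb, there was no H3K27ac region, whereas 9 H3K4me1 regions covered 68.9% of the sequence. In the last 14.7 kb of the H3K4me1 stretch, from 24060462 to 24075121, the H3K4me1 regions were also smaller and lower: 12 regions of 206 to 2787 bp reached 2.18-fold to 5.05-fold and covered 60.3%. The first of them, from 24060827 to 24063613, had 34 summit reads but 3.45-fold, over a background of 2.44 times the level of the genome. One H3K27ac region, of 3.42-fold, met this last part.

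The strongest acetylation of the window lay beyond the gene. An H3K27ac region from 24124062 to 24130160, 149.0 kb after the start summit and 6.10 kb wide, reached 17.1-fold with 64 reads (interval 49.3 to 81.7). The read intervals of this region and of the start region overlap, so their order is not resolved by counting error alone. Of all H3K27ac regions, itself included, 1822 (1.95%) were at least as strong and 89 at least as wide. In contrast to the start, its summit at 24127289 lay inside H3K4me1: 2 H3K4me1 regions, of 8.64-fold and 7.90-fold, met the region. The former ended at 24126856 and the latter, which held the summit, began at 24127060, so a short break in H3K4me1 lay close to the summit.

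This region was part of a block from 24112390 to 24157700, formed in the same way, in which 21 H3K27ac regions covered 30.5 kb (67.3% of 45.3 kb). H3K4me1 covered 91.3% of the block, and all 21 acetylation summits lay inside it. The block ranked 32nd by acetylated length among 45758 such blocks, and the longer block over the gene 47th. The block beyond the gene had 6 regions of 2 kb or more and the block over the gene 1. Its regions had a median width of 645 bp against 338 bp, and a median summit of 4.92-fold against 4.16-fold. Besides the strongest, the wide regions were those from 24135474 to 24138635 (12.1-fold, 40 reads), 24112390 to 24116502 (9.75-fold), 24143239 to 24146022 (8.62-fold), 24139105 to 24141279 (6.26-fold) and 24146891 to 24149820 (5.61-fold). A single H3K4me1 region of 20.1 kb, from 24133404 to 24153550, reached 7.70-fold and met 10 H3K27ac regions. The strongest H3K4me1 of the block, 9.69-fold from 24154151 to 24159218, stood at its far end, where the H3K27ac regions it met reached at most 6.80-fold.

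**Figure D2:**
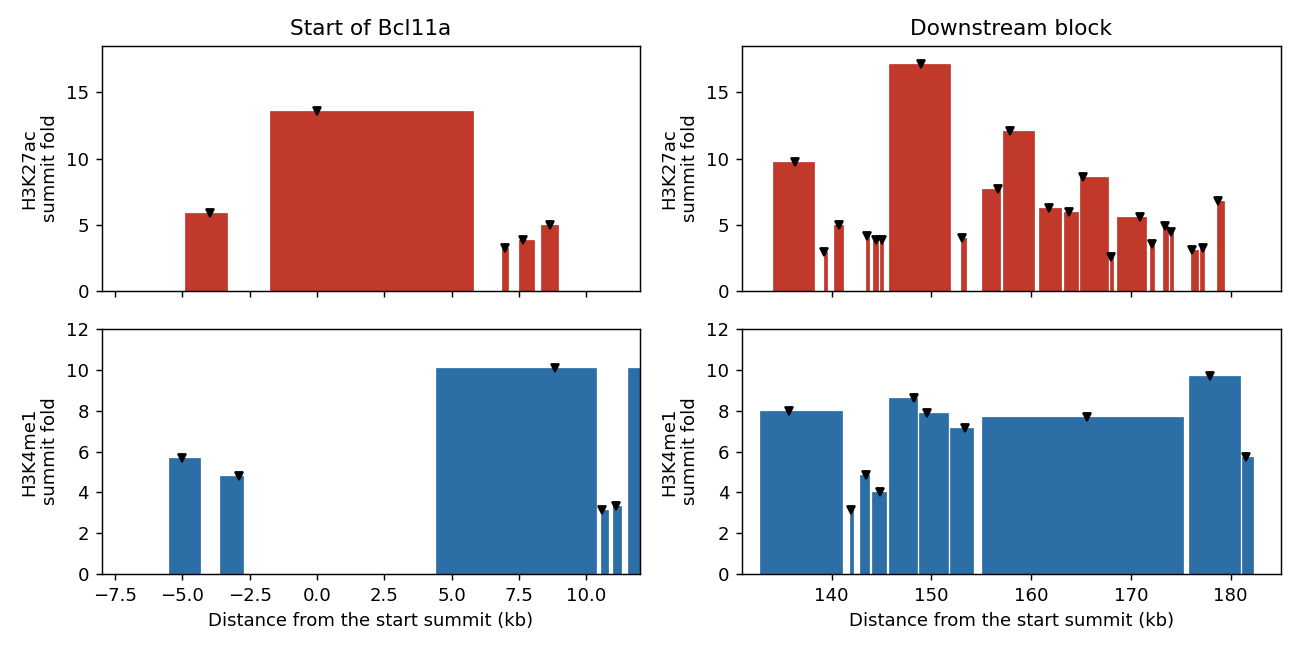
Regions at the Bcl11a start (left) and in the block beyond the gene (right), drawn over their width at their summit fold (y axes) with the summit positions as triangles, against distance in kb from the start summit. At the start the H3K27ac summit lies in a gap of H3K4me1 of 7.15 kb, and in the block all 21 H3K27ac summits lie inside H3K4me1.

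Further along the flank the marks formed separate islands. Of the 3 with the strongest acetylation, the first, from 24195662 to 24199054 and 219.4 kb after the start summit, reached 10.6-fold for H3K27ac with 35 reads, inside an H3K4me1 region of 5.67 kb and 9.48-fold. The second, about 293.6 kb after the start summit, combined an H3K27ac region of 6.80-fold from 24271612 to 24272624 with an H3K4me1 region of 9.27-fold from 24269193 to 24273507. The third, from 24290094 to 24291436, reached 9.16-fold for H3K27ac and lay 312.5 kb after the start summit, inside an H3K4me1 region of 4.78-fold that held 34 summit reads over a background of 1.69 times the level of the genome. Between the block beyond the gene and the first island, no H3K4me1 region was called from 24160545 to 24175410 (14.9 kb). The same held from 24214399 to 24228256 (13.9 kb), where 2 weak H3K27ac regions lay next to each other, from 24217237 to 24217796 (3.25-fold) and from 24218153 to 24218491 (3.55-fold). Another, from 24214279 to 24214644 (3.25-fold), met H3K4me1 at the edge of this stretch but had its summit, at 24214623, within it.

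Before the gene both marks were sparse. The 80.0 kb of the window before 23.98 Mb held 7 H3K27ac and 10 H3K4me1 summits, and apart from the start region none of the H3K27ac regions exceeded 5.91-fold. The 3 longest stretches with neither mark were all there: 23914763 to 23938115 (23.4 kb), 23900000 to 23914525 (14.5 kb, cut by the edge of the window) and 23938537 to 23949441 (10.9 kb). The first H3K27ac member, from 23914526 to 23914762, had 3.84-fold, and the nearest one outside, from 23794433 to 23795339, had 19.2-fold. The last member, from 24290094 to 24291436, was 9.16-fold and the next outside, from 24364184 to 24364806, 5.02-fold. For H3K4me1 the members at the edges were 3.16-fold and 4.78-fold, and the nearest regions outside 1.99-fold and 3.79-fold.

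By length, H3K27ac covered 22.1% of the window and H3K4me1 45.0%. Over the gene interval the shares were 36.6% and 90.0%, over the flank beyond it 21.1% and 39.6%, and before the gene 8.64% and 9.97%. Of the acetylated length, 91.1% carried H3K4me1 in the gene interval, 90.4% beyond it and 29.0% before it, a part that includes the summit of the start region. Across the genome this share was 65.9%. In 10 kb bins from the start summit, H3K4me1 covered 93.6 to 100% of every bin from 10 to 80 kb, while H3K27ac varied from 20.3 to 65.6% in them. The highest acetylated share, 83.5%, was in the bin from 160 to 170 kb.

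**Figure D3:**
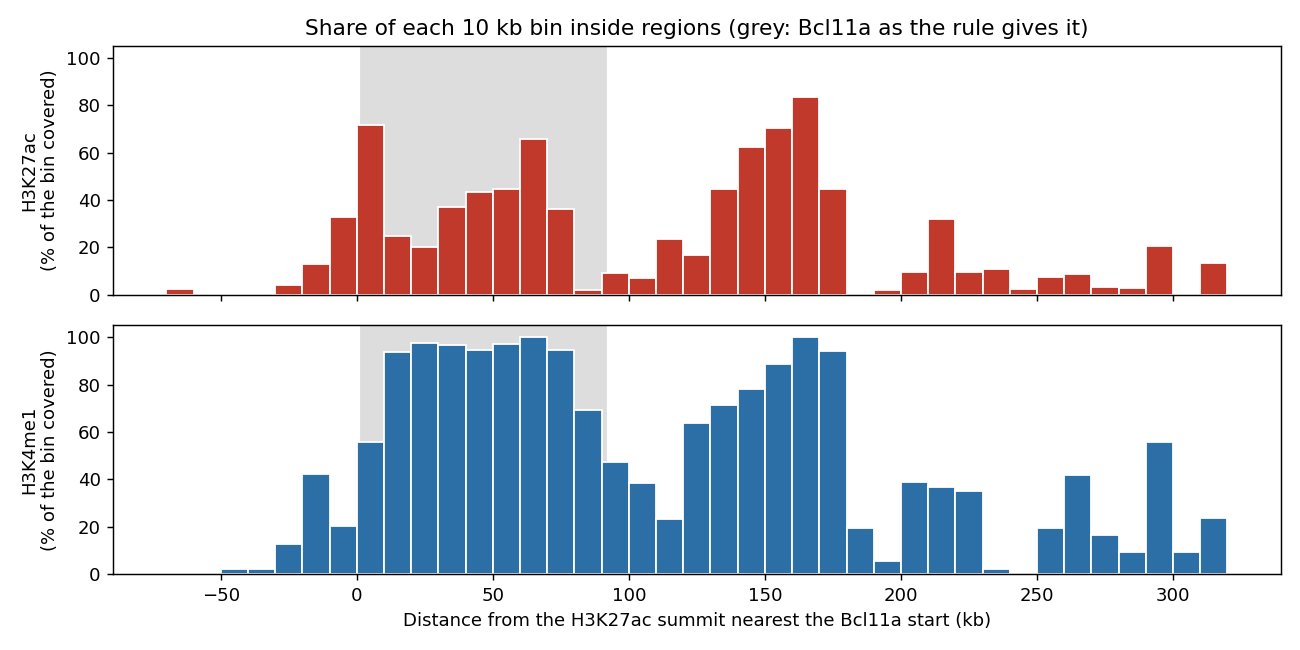
Share of each 10 kb bin that lies inside H3K27ac (top) and H3K4me1 (bottom) regions, against distance in kb from the H3K27ac summit nearest the Bcl11a start, with the gene as the rule gives it in grey. H3K4me1 covers 93.6 to 100% of the bins from 10 to 80 kb, and both marks rise again between 130 and 180 kb.

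Most acetylated members carried H3K4me1, and about as many H3K4me1 members had H3K27ac as lacked it. Of the 115 H3K27ac regions, 103 (89.6%, exact binomial 95% interval 82.5 to 94.5%) met an H3K4me1 region by at least 1 bp, against 71.7% of all H3K27ac regions. The acetylation summit was inside H3K4me1 in 98 (85.2%, interval 77.4 to 91.1%), against 58.2%. Of the 79 H3K4me1 regions, 41 (51.9%, interval 40.4 to 63.3%) met H3K27ac, against 33.6%. The window was chosen for its acetylation, H3K4me1 covers much of it, and meetings by position alone, which grow with coverage, were not corrected for. Nothing particular to the locus is read from these shares. Neighbouring regions are not independent samples.

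The 12 H3K27ac regions without H3K4me1 reached at most 4.73-fold and were at most 560 bp wide. None of the 49 H3K27ac regions with their summit in the gene interval was among them, but 2 of the 7 before it and 10 of the 59 beyond it were. H3K4me1 covered 90.0% of the gene interval, 9.97% of the sequence before it and 39.6% beyond it. Whether this coverage bears on where such regions lay was not tested. The strongest were those from 24230293 to 24230480 and from 24273739 to 24274013, of 4.73-fold and 15 reads each. Then came the region from 24091061 to 24091294 (4.43-fold) and those from 23914526 to 23914762 and from 24192771 to 24192998 (3.84-fold each). Their median summit was 3.55-fold, against 4.19-fold for the 103 others. The same split over all H3K27ac regions is not given, so nothing particular to the members is read from it.

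The 38 H3K4me1 regions without H3K27ac had a median width of 342 bp and a median summit of 3.28-fold, against 2158 bp and 6.53-fold for the 41 with it. A wider region meets the other mark more often by position alone. The same split over all H3K4me1 regions is not given, so nothing particular to the members is read from this contrast. These 38 were 9 of the 17 H3K4me1 regions with their summit in the gene interval, 25 of the 52 beyond it and 4 of the 10 before it. The strongest lay from 24159471 to 24160544 (5.75-fold), 24285956 to 24286897 (5.69-fold), 24079957 to 24080333 (5.41-fold), 24071681 to 24072584 (5.05-fold) and 24183624 to 24183952 (4.98-fold). The first of these belonged to the same H3K4me1 stretch, of 49.4 kb, as the block beyond the gene.

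The typical acetylated member was close in size and strength to the typical acetylated region of the genome. The median H3K27ac member was 366 bp wide (quartiles 256 and 648 bp) with a summit of 4.14-fold and 14.0 reads, and the median of all H3K27ac regions was 355 bp, 3.86-fold and 13.0 reads. Of the 115, 4 (3.48%, interval 0.956 to 8.67%) reached 10-fold, against 7.77% of all, and 9 (7.83%, interval 3.64 to 14.3%) were 2 kb wide or more, against 4.04%. The window was chosen by acetylated length. The intervals take neighbouring regions as independent, which they are not, so no agreement or difference is read from them. The 9 wide regions held 41.9% of the acetylated length. For H3K4me1, 11 of 79 regions (13.9%, interval 7.16 to 23.5%) were 5 kb wide or more, against 2.04% of all, and these 11 held 61.6% of the H3K4me1 length of the members. The 11 all met H3K27ac, with 66 overlaps in total, and the share over all H3K4me1 regions of that width is not given. Of the 10 H3K27ac regions of highest fold, 7 lay beyond the gene, 2 in it and 1 at its start. Of the 10 highest for H3K4me1, 4 lay in the gene and 6 beyond it, and their folds, from 7.97 to 10.5, were closer together. Of all members, 59 of the 115 H3K27ac and 52 of the 79 H3K4me1 summits lay beyond the gene. No concentration of strong regions there is read from lists of 10. The last place of the H3K27ac list, 6.80-fold, was shared with the regions from 24156933 to 24157700 and from 24271612 to 24272624.

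At the 4 summits of 10-fold or more, 3 lay inside H3K4me1 and the start summit did not. Across the genome 25.6% of summits of that strength lay inside H3K4me1. So few summits allow no comparison of shares (interval 19.4 to 99.4%).

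At most summits the local background that the fold is divided by was not raised over the genome-wide level. It was raised, by more than 5%, at 38 of 115 H3K27ac summits (33.0%, interval 24.6 to 42.4%, against 26.2% of all) and at 29 of 79 H3K4me1 summits (36.7%, interval 26.1 to 48.3%, against 36.8%). It was 1.00 times the genome-wide level at the start summit and 1.17 times at the strongest summit beyond the gene. In both lists the lowest ratio and the median ratio were 1.00. A ratio of 1.00 is therefore a floor and does not show how low the local background was. The highest values were 2.38 for H3K27ac, at the weak regions from 24001320 to 24001532 and from 24146266 to 24146536, and 2.44 for H3K4me1. The part of the background in the fold values was not tested.

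Joining H3K27ac regions over gaps of up to 12.5 kb made 113 of the 115 members 1 domain, from 23949442 to 24274013, with 86.7 kb acetylated. Among the 10 domains of largest acetylated length at this joining limit, it was long and thinly acetylated. It spanned 325 kb, and 1 of the other 9 was longer (range 136 to 375 kb). The span bridged gaps without H3K27ac of 12.3, 11.9 and 11.8 kb, just under the limit of 12.5 kb. Its length and thin acetylation therefore depend on that limit, and such gaps were not listed for the other 9. It was acetylated over 26.7% of its span, and 1 of the other 9 had a lower share (18.3 to 51.1%). H3K4me1 covered 54.0% of it, with 7 of the 9 higher (43.8 to 89.3%), and 85.8% of its acetylation summits lay inside H3K4me1, with 4 of the 9 higher (66.0 to 97.2%). Its median acetylated region was 366 bp wide, against 338 to 606 bp. The longest H3K4me1 stretch that met it, the one over the gene, was 92.4 kb, and 2 of the 9 had a longer one (20.3 to 172 kb). These are single values of the same libraries, chosen by the length of the acetylation, and the differences were not tested. With gaps of up to 5 kb the domain fell apart into the blocks above, of which the first by acetylated length, the block beyond the gene, ranked 32nd. With −log10 q of at least 5 or 10, the largest domain of the window ranked 22nd or 18th, so it was not among the 10 largest at either limit. The cause of this move was not tested.

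**Figure D4:**
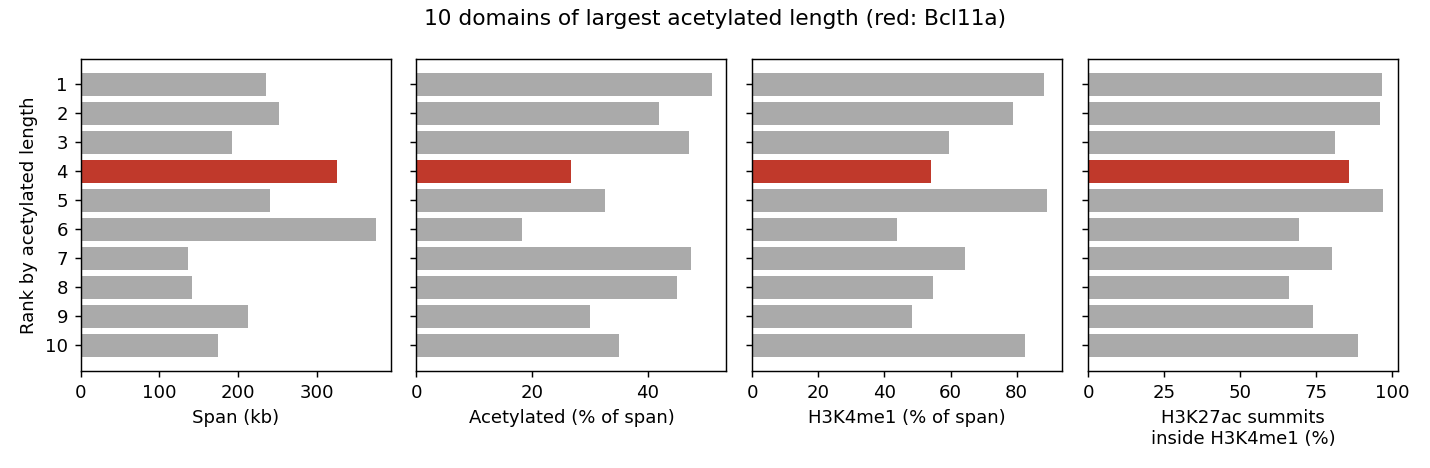
Span, acetylated share of the span, H3K4me1 share of the span and share of H3K27ac summits inside H3K4me1 (x axes) for the 10 domains of largest acetylated length, by rank (y axis). The Bcl11a domain, in red at rank 4, spans 325 kb and is acetylated over 26.7% of it.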

How the data were processed

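The members and the lists were chosen with earlier results of these data known. Each deposited peak list was called on 1 library, with the mouse build mm9, Bowtie2 2.0.6 and MACS2 2.0.10.20131216 named in the submitters' processing notes. Filters, options and the control of the peak caller are not given in the sources used here. Per peak the authors deposited the fold ratio of the summit over its local background, its −log10 p, its −log10 q (at least 1.30 in the H3K27ac list and 1.31 in the H3K4me1 list) and a score that repeats the −log10 q in whole numbers and was left aside.

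Regions touching the window were taken as deposited, written counting from 1, and assigned to the gene or a flank by their summit. Regions met when sharing 1 bp. Summit reads and local background were computed from fold and p, taking fold as (reads + 1)/(background + 1) and p as a Poisson probability. For every peak of both lists, whole reads returned the −log10 p within 0.001. The background over the genome was 2.38 reads in the H3K27ac library and 3.75 in the H3K4me1 library, and the weakest summits of the lists held 8 and 10 reads. Interval functions were tested on simulated data. Read recovery was run again on fold and p computed from the recovered reads with the same formulas. That checks the inversion and not the formulas. The rule for named regions was the 10 of highest fold and the 5 widest of each mark, the region nearest the gene start, the 5 strongest of each mark without the other, the 3 longest unmarked stretches and the regions at the edges. Others named describe the blocks and islands and were chosen after their values were seen. RefSeq tables on GRCm38.p6 gave gene order and the promoter, 1 entry for Bcl11a. The alternatives changed the q threshold, the overlap rule, the joining of regions, domain gap and ranking, and the gene interval. The tools were scipy 1.17.1, pandas 2.3.3 and numpy 2.4.6 under Python 3.11.15, with figures from matplotlib 3.10.9.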

Additional observations from a re-analysis of the deposited data

How the results depend on the processing

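Of 41 values under alternatives, 30 moved: shares out of their counting interval, counts by over 1.5 times, and lengths, ratios or ranks in a printed digit. A reversal was defined only for the ratios of the gene interval to the flank beyond it, and 0 of these reversed. Shares, counts, lengths and ranks could not be labelled as reversed. With −log10 q limits of 5 and 10 on both lists, 55 and 18 H3K27ac and 49 and 31 H3K4me1 regions were left. Of the H3K27ac regions 94.5% and 100% then met H3K4me1. At the second limit 94.4% of acetylation summits lay inside H3K4me1 and 35.5% of H3K4me1 regions met H3K27ac. H3K27ac covered 16.9% and 11.2% of the window and H3K4me1 42.1% and 37.6%. The largest domain of the window ranked 22nd and 18th instead of 4th by acetylated length. The acetylated share of the gene interval over that of the flank beyond it was 1.74 as reported, 1.70 and 1.17 at these limits, and 1.63 and 1.94 with a gene interval 10 kb wider or narrower at both ends. For H3K4me1 this ratio was 2.27 as reported, and 2.44, 2.57, 2.02 and 2.40. Joining over 1 kb left 56 H3K27ac and 31 H3K4me1 regions, of which 64.5% of the latter met H3K27ac. That share was 72.9% with equal numbers of regions in both lists and 64.6% within 1 kb. With gaps of up to 5 kb the domain fell apart, and its largest block ranked 32nd. The domain ranked 6th by fold times width and 3rd by number of regions. Each q limit leaves fewer regions, and the cause of these moves was not tested. Leaving out summits with raised background, chosen after the data had been seen, gave 87.0% and 56.0% for the shares of H3K27ac and of H3K4me1 regions. No paired analysis was possible because only 1 library was made per mark. Depth limits what can be called unmarked: a summit under 8 H3K27ac or 10 H3K4me1 reads is in neither list.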
